A study of Mus musculus with 8 samples.

Results

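Mitochondrial ribosomal protein genes, whose mouse symbols begin with Mrpl for the large subunit and Mrps for the small subunit, were followed across all 8 arrays. They were taken by name: every probe that is no control and whose gene name in the files starts with Mrpl or Mrps and a number. The rule found 125 probes for 75 genes, 46 of the large and 29 of the small subunit, among 41174 probes for 27654 genes and unnamed probes. The rule itself uses no measured value, though it was set with earlier results of these data known. All 75 were well above background in at least 1 group and entered the tests, with 22943 genes and unnamed probes in all. The name rule is not the whole ribosome: Dap3, Chchd1, Aurkaip1, Ptcd3, Gadd45gip1 and Mrpl58 belong to it under other names and were kept apart. As background, Mrps18a and Mrps30 sit in the large subunit despite their names, and Mrps36 is now known as a component of a dehydrogenase of the citric acid cycle. The 46 large and 29 small subunit genes follow the names, so these genes count as small there.

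The RNA came from donor-derived haematopoietic stem cells (HSC), which rebuild the blood of a recipient mouse. Donors were wild type (WT) or E47 knock out (KO), and cells were sorted from primary recipients or from secondary recipients, mice that received a further transplant. Each genotype in each recipient makes a group of 2 arrays, so all 8 arrays hold cells that have been transplanted and none holds cells from an unmanipulated mouse. The sources used here do not give the mouse strain, the age or the number of cells. They also leave unsaid if a group's pair of arrays comes from different mice, so the p-values may reflect technical spread alone. The cDNA was copied by a PCR of all transcripts before it was labelled with Cy3. All 4 WT arrays lay on slide 1, the KO secondary arrays on slide 2 and the KO primary arrays on slide 3, and slide and genotype therefore cannot be told apart, nor can slide and recipient within KO.

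Mitochondria keep a ribosome of their own, which makes only the few proteins that mitochondrial DNA encodes, all of them parts of the respiratory chain and the ATP synthase. Its proteins are all encoded in the nucleus, made in the cytosol and imported, and the large subunit forms peptide bonds while the small subunit reads the messenger RNA. HSC are known for low reliance on respiration at rest. E47 is a product of the gene Tcf3 and binds the E-box, a short DNA motif.

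The promoters of 5 members whose values are described below are shown first, because a set of nuclear factors is known to act on genes for mitochondrial proteins and E47 is known to act at E-boxes. Each line gives the 250 bases before the annotated start (RefSeq, GRCm38.p6), in the direction of the gene. Capitals mark CCGGAAG, the core that ETS factors such as GABPA bind, in Mrpl3, the NRF1 motif, a palindrome, in Mrpl32 and Mrpl39, and CANNTG, the E-box, in Mrpl24, where it occurs 1 time, and Mrps9, where it occurs 3 times. Mrpl3 and Mrpl32 also hold 1 E-box each, left in lower case, and Mrpl39 holds 0.
Mrpl3, chr9:105053018-105053267, plus strand: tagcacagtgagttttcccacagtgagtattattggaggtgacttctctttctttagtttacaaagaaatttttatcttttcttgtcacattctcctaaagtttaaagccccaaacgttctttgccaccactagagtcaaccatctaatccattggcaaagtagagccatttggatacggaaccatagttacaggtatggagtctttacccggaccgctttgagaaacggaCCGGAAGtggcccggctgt
Mrpl32, chr13:14613038-14613287, minus strand: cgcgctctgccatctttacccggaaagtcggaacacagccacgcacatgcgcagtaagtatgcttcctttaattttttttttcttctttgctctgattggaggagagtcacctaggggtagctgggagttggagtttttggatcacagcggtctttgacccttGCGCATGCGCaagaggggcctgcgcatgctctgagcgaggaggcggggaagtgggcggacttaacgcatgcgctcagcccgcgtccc
Mrpl39, chr16:84735245-84735494, minus strand: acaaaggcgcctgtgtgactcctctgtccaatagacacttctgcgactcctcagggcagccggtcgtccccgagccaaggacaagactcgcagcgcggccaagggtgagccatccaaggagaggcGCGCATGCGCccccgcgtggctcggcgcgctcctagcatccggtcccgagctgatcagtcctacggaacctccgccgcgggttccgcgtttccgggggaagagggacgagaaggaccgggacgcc
Mrpl24, chr3:87919294-87919543, plus strand: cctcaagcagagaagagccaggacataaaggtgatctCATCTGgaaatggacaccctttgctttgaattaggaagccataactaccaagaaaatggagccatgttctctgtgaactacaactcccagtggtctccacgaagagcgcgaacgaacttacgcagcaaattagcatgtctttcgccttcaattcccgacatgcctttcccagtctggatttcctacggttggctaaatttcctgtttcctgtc
Mrps9, chr1:42850983-42851232, plus strand: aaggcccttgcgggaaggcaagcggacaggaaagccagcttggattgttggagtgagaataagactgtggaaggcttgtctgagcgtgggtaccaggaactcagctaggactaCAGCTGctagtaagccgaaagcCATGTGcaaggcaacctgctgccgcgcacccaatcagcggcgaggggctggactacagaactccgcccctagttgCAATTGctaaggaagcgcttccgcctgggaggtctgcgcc

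RefSeq's table held 72 promoters for 66 of the 75 genes, each of 300 bases (250 before and 50 after the start), and 21262 promoters of protein-coding genes. On either strand, CCGGAAG was in 33.3% of the members' promoters and in 11.6% of all. AAGATGGC, the core of the YY1 motif, was in 15.3% and in 3.1%. The NRF1 motif was in 4.2%, which is the promoters of 3 members, Mrpl9, Mrpl32 and Mrpl39, and in 1.3% of all. CCGGAAG and the NRF1 motif hold the pair CG, which was more common in the members' promoters. Its observed over expected count had a median of 0.818 in members and 0.565 in protein-coding genes. The part of this in the motif shares was not tested. The E-box, CANNTG, was in 61.1% of the members' promoters and in 69.0% of all. A start on the opposite strand lay within 1000 bases in 23 of 66 members, or 34.8%, and in 8.5% of protein-coding genes with a promoter. Mrpl30 and Mitd1, for example, start 66 bases apart, and Mrpl32 and the proteasome gene Psma2 start 205 bases apart. These letters describe the sequence alone, and no binding was measured.

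Each level below is a scaled level, the log2 intensity of a probe less the 75th percentile of its array; levels compare arrays for 1 probe and not probes with each other. The second arrays of both primary groups were dim. They had 41.9% (WT) and 35.4% (KO) of spots well above background, against 72.2% to 90.7% on the other 6, and 65 and 59 of the 125 member probes, against 98 to 121. A probe at background stood near a scaled level of -4.22 and -3.28 on those 2 arrays, and between -8.51 and -6.98 on the others. Between groups, the median gene itself moved, so changes below are given relative to the median change of all genes tested. The p-values and standard errors (SE) belong to the change before that step. The median change was -0.76 for secondary against primary recipients, -1.04 in WT and -0.54 in KO, and it was 0.33 for KO against WT, 0.27 in primary and 0.47 in secondary recipients. Of 10 HSC markers, 10 were well above background on each of 6 arrays, 4 on the dim WT array and 6 on the dim KO array. Relative to the median gene, their median change was 2.36 for secondary against primary recipients, with 8 of 10 above 0, and -1.92 for KO against WT in secondary recipients, with 8 of 10 below 0. Of 10 granulocyte markers such as S100a8 and Camp, 9 or 10 were detected on the primary arrays, with a summed level of 7.85 to 13.98, and 7 to 9 on the secondary arrays, with a summed level of 2.69 to 4.68. The part of these marker differences in the results below was not tested. With RNA of a mixed sort, fewer cells of a type and less RNA per cell cannot be told apart. The 2 probes of Tcf3 gave no check of the knockout: the better detected read -1.60 and 5.20 in WT primary, -2.07 and 2.39 in KO primary, 1.07 and 1.28 in WT secondary, and 1.32 and -1.34 in KO secondary arrays. The sources used here do not say if either probe lies in the deleted stretch.

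Over all 46 large subunit genes, the median scaled level was higher on each secondary than on each primary array. This did not hold over the 33 that were also detected in a primary group. The median scaled level of the 46 large subunit genes was -0.92 and -0.43 on the WT primary arrays, -0.90 and -1.0 on the KO primary arrays, 0.44 and 0.91 on the WT secondary arrays, and 0.68 and -0.09 on the KO secondary arrays. All 4 secondary arrays lay above all 4 primary arrays, but 13 of the 46 genes had passed the filter on dim probes through the secondary groups only. Over the 33 large subunit genes well above background in a primary group, the medians were -0.43 and 0.26, 0.08 and -0.22, 0.88 and 1.25, and 1.28 and -0.62 in the same order. There the second KO secondary array lay below all 4 primary arrays. For the 29 small subunit genes it was -0.01 and -0.63, -0.22 and -0.39, 0.57 and -0.03, and 0.00 and -1.09 in the same order, and the recipients overlapped. The median of all genes tested stayed between -1.27 and -0.88. The spread of such a median between the 2 arrays of a group was 0.32 (pooled SD) for the large and 0.39 for the small subunit.

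**Figure D1:**
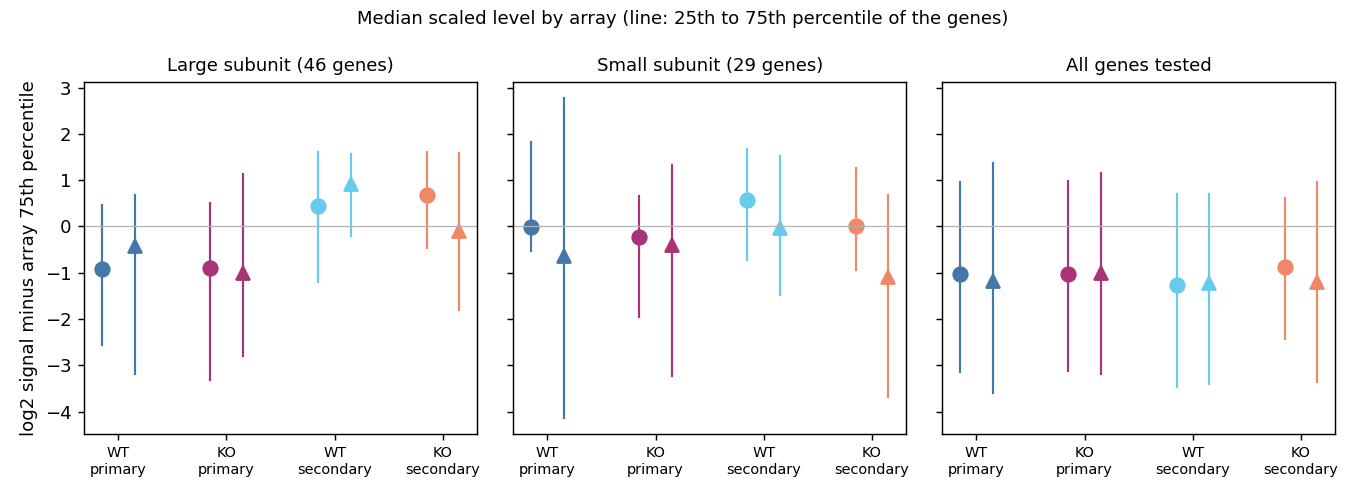
Median scaled level (log2 signal minus the array's 75th percentile, vertical axis) of the large subunit genes, the small subunit genes and all genes tested on each of 8 arrays (circle: replicate 1; triangle: replicate 2), by group on the horizontal axis; lines span the 25th to 75th percentile over genes and are no error bars. The large subunit medians of the 4 secondary arrays, -0.09 to 0.91, lie above those of the 4 primary arrays, -1.0 to -0.43, while the small subunit medians overlap; without the 13 large subunit genes that passed the filter through secondary groups only, which the plot includes, the second KO secondary array is at -0.62, below every primary array.

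The gene by gene test passed no member at this number of arrays. In limma's additive fit over both genotypes, 0 of 22943 genes had an adjusted p under 0.05 (0%), and so 0 of 75 members. At an unadjusted p under 0.05, 12 members were higher in secondary recipients, where 5.43% of all genes tested were, and 1 was lower, where 14.1% were. The 12 were 10 of 46 large and 2 of 29 small subunit genes. Relative to the median gene, the median change was 1.40 for the large subunit, with 35 of 46 genes above 0. For the small subunit it was 0.51, with 17 of 29 above 0, but before that step it was -0.25, while the large subunit had 0.64, so the sign for the small subunit depends on the scaling. Cytosolic ribosomal proteins, 81 genes, had a median of -0.91, and 81 genes of the respiratory chain and ATP synthase one of 1.06. Relative to the median gene, the cytosolic genes had a median of 11.47 (WT) and 10.29 (KO) on the dim primary arrays. It was 5.55 and 5.73 on the other primary arrays and 6.27 to 7.12 on the secondary arrays. Only the dim primary arrays thus lay above the secondary arrays for the cytosolic genes. In WT alone the medians were 1.74 (large) and 0.65 (small), and in KO alone 0.69 and 0.23; before the centring the small subunit had -0.39 and -0.31. With 1 array left out at a time, the KO medians ran from 0.071 to 1.46 (large) and from -0.95 to 0.58 (small). The filter on dim probes bears on these values: 22 of 75 members, 29.3%, passed it through secondary groups only and 0 through primary groups only, against 33.9% and 0.3% of all genes tested. Among genes well above background on all 8 arrays, the median change of the large subunit was 0.98, and among the 33 detected in a primary group it was 1.06.

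**Figure D2:**
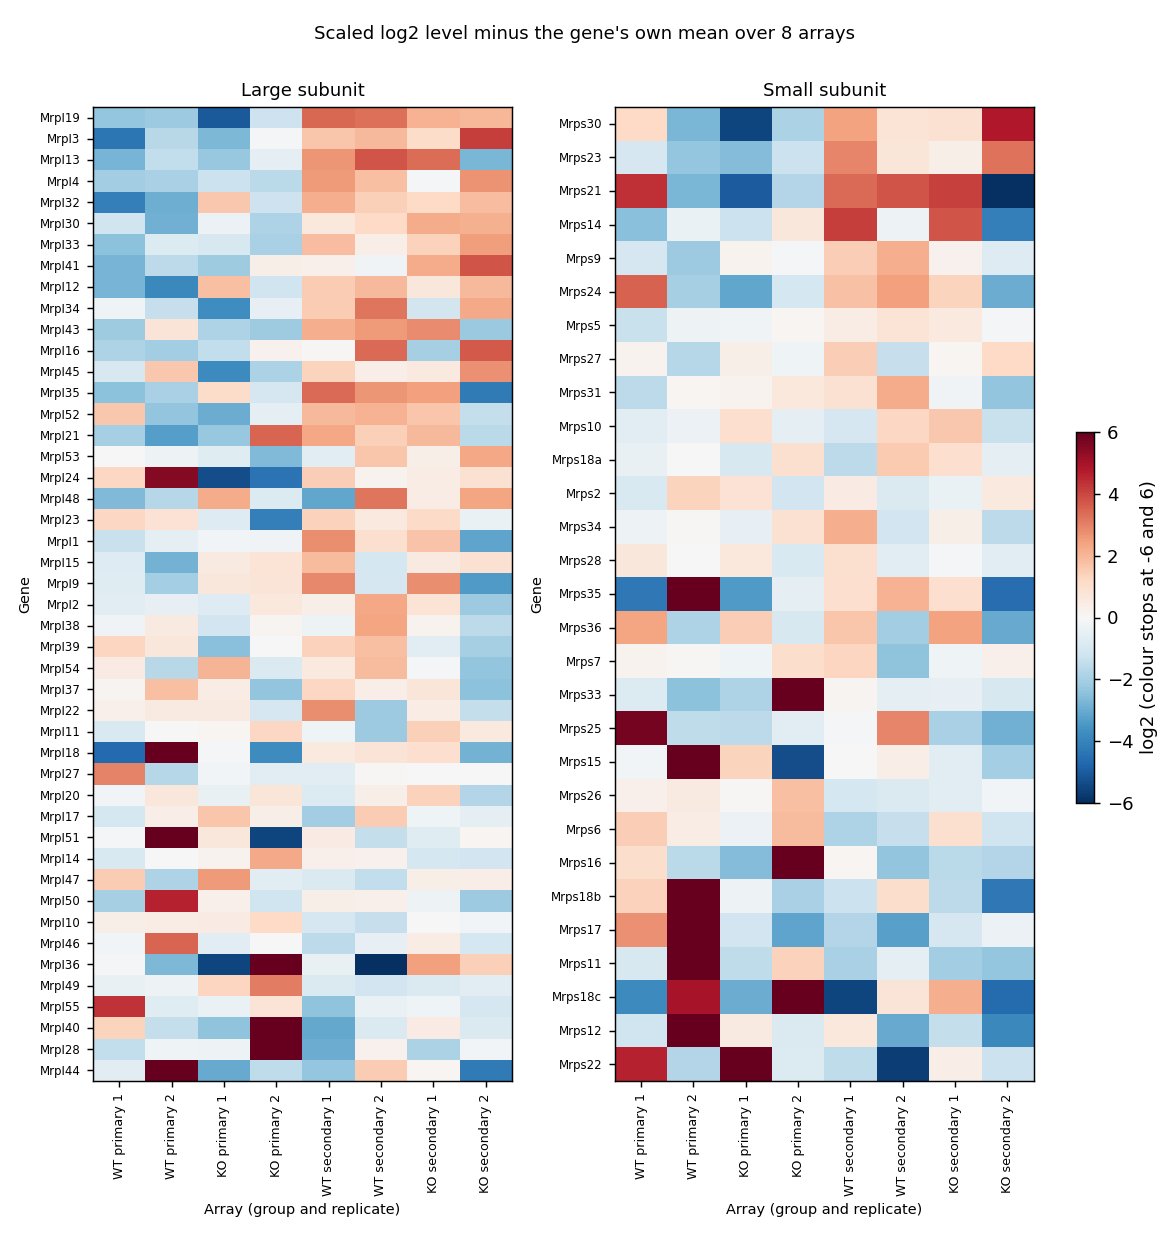
Scaled log2 level of each of the 75 genes minus that gene's own mean over 8 arrays (colour, stopping at -6 and 6), with arrays on the horizontal axis and genes on the vertical axis, sorted from the highest to the lowest difference between secondary and primary recipients. In the upper rows of the large subunit, from Mrpl19 to Mrpl41, the 4 secondary arrays are mostly red, and the darkest red cells lower down fall mainly on the second arrays of the primary groups.

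Among single members, Mrpl19 had the lowest p. Its protein belongs to the large subunit's core, shared with bacteria, and its probe lies at chr6:81927634-81927693 (mm8, minus strand). Its scaled level was -4.43 and -4.29 on the WT primary arrays, -7.15 and -3.34 on the KO primary arrays, 1.36 and 1.2 on the WT secondary arrays, and -0.02 and -0.12 on the KO secondary arrays. The groups did not overlap, and only 1 of the 4 primary arrays showed the probe well above background. The change relative to the median gene was 6.17 (SE 0.89), with an adjusted p of 0.0747 in limma's fit. In KO recipients, where no primary array detected it, the secondary level was at least 12.2-fold higher relative to the median gene (a bound set by the lowest signal well above background). Mrpl19 passed the filter on dim probes through the secondary groups only, so this bound is a description. Across 19 settings the change ran from 2.93 to 6.94 and the adjusted p from 0.0152 to 0.300; without both dim arrays it was 6.91, with an adjusted p of 0.0477.

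The scaled levels of 6 members were higher on all 4 secondary than on all 4 primary arrays, as for 3.09% of all genes tested, and those of 3 were lower, as for 12.9%. The 6 were Mrpl19, Mrpl30, Mrpl3, Mrpl4, Mrpl33 and Mrps23. All but Mrpl33 passed the filter on dim probes through the secondary groups only, where they are high, so their count is a description and supports nothing. Mrpl3, part of the core near the catalytic centre, read -6.86 and -4.22 in WT primary, -5.24 and -2.66 in KO primary, -0.88 and -0.57 in WT secondary, and -1.44 and 1.59 in KO secondary arrays. No primary array showed this probe well above background, though 2 of the gene's other 3 probes were so on the first WT primary array. Its change was 5.18 (SE 1.02, adjusted p 0.144 in limma's fit). Mrpl30, a core protein, read -2.35 and -4.06, -1.52 and -3.03, -0.53 and 0.04, and 1.07 and 0.96 in that order, a change of 3.88 (SE 0.72). Mrpl4, a protein at the exit tunnel, read -2.96 and -2.85, -2.19 and -2.50, 1.65 and 0.91, and -0.95 and 1.81, a change of 4.24 (SE 0.81). Its lowest secondary value was on a KO array. Mrpl33, a small protein near the site where spent transfer RNA leaves, was well above background on all 8 arrays, at -0.43 and 1.24, 1.09 and 0.12, 3.87 and 2.46, and 3.45 and 4.53, a change of 3.83 (SE 0.75). Mrps23, a protein found only in mitochondrial ribosomes and the only small subunit gene of the 6, read -2.97 and -4.25, -4.52 and -3.22, 0.99 and -1.22, and -1.61 and 1.30, a change of 4.37 (SE 0.92). For the 5 other than Mrpl19, the adjusted p-values in limma's fit lay between 0.144 and 0.183, and the changes without both dim arrays between 2.83 and 6.23.

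The 3 members that were lower on all secondary arrays were Mrpl49, Mrpl10 and Mrps26. Mrpl49, a protein of mitochondria alone, read 2.23 and 2.37 in WT primary, 3.94 and 5.73 in KO primary, 1.81 and 1.5 in WT secondary, and 1.80 and 1.99 in KO secondary arrays. Its change relative to the median gene was -1.04 (SE 0.78), with an unadjusted p of 0.0478 and an adjusted p of 0.254 in limma's fit. Only the KO primary arrays stood apart, and the mean over its 3 probes gave 0.69 in place of -1.04. Mrpl10, of the stalk that recruits translation factors, had -0.49 (SE 0.62) and Mrps26 had -0.59 (SE 0.67). Before centring, the step to which these errors belong, the changes were -1.25 and -1.35.

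**Figure D3:**
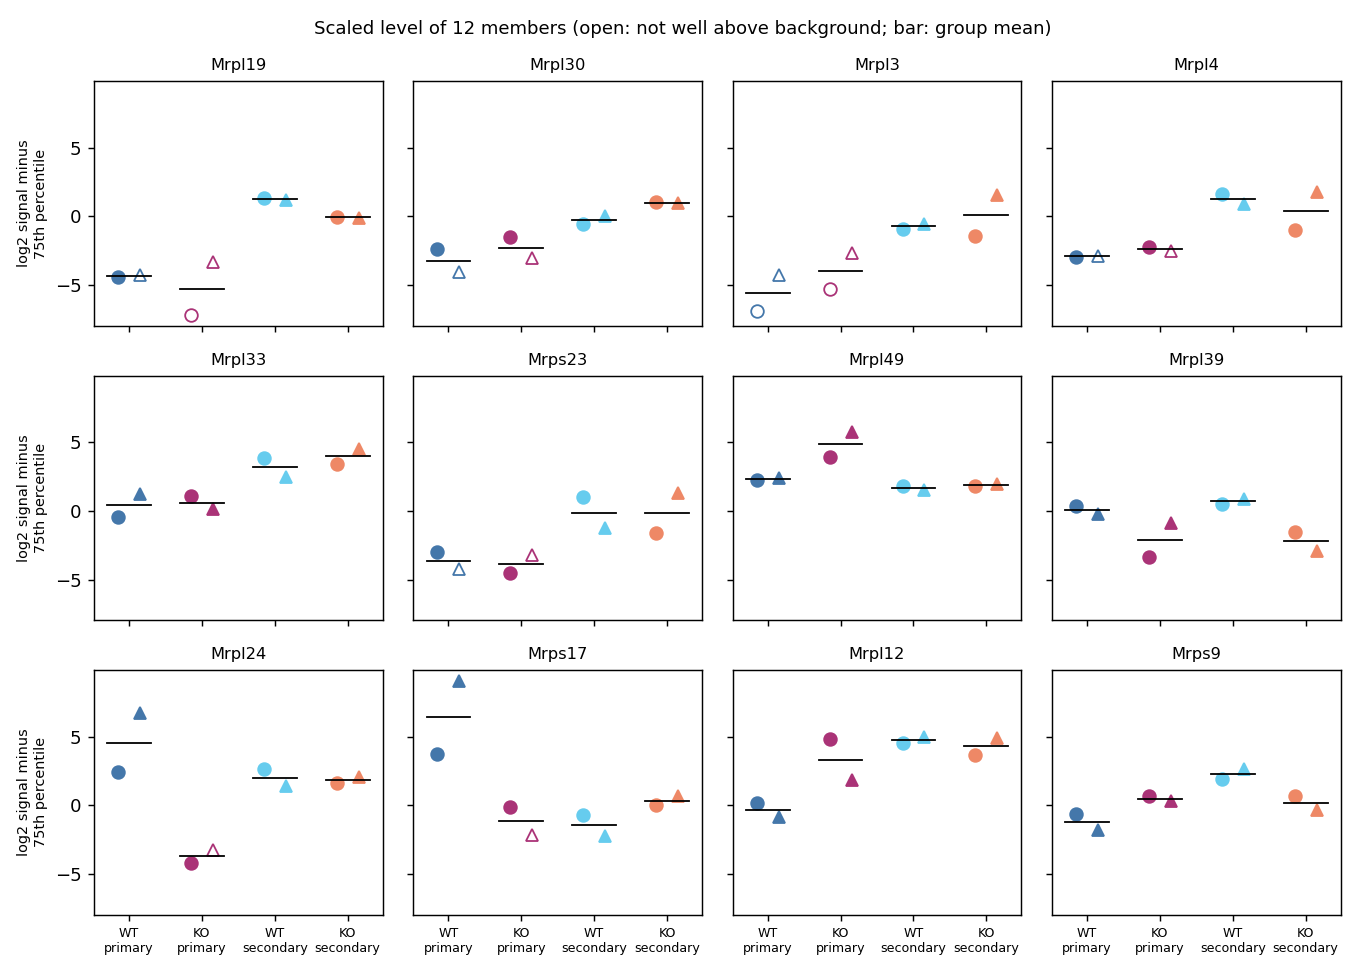
Scaled level (log2 signal minus the array's 75th percentile, vertical axis) of 12 members on each array (circle: replicate 1; triangle: replicate 2; open: not well above background), by group on the horizontal axis, with a bar at each group's mean. Mrpl19, Mrpl30, Mrpl3, Mrpl4, Mrpl33 and Mrps23 sit higher in both secondary groups; Mrpl39 sits lower in both KO groups; Mrpl24 and Mrps17 are highest on a single dim WT array.

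The recipients were also compared within each genotype. In WT, 11 members were higher in secondary recipients at an unadjusted p under 0.05 (5.3% of all genes) and 1 was lower (6.92%), and 26 did not overlap upward (15%) and 7 downward (40.7%). In KO, 11 were higher (3.23%) and 1 lower (2.78%), with 14 (12.6%) and 9 (28.7%) not overlapping. limma called 0 of 22943 genes in either. Mrpl12, the stalk protein that also binds the mitochondrial RNA polymerase, rested on WT: it read 0.20 and -0.86 in WT primary, 4.80 and 1.82 in KO primary, 4.51 and 4.97 in WT secondary, and 3.70 and 4.93 in KO secondary arrays. The WT primary arrays were the low ones. Its change was 6.11 (SE 1.26) in WT, with an adjusted p of 0.361. Mrpl32, a core protein that must be cut by a protease before it joins the ribosome, had the same form, at -3.06 and -1.87, 2.65 and -0.22, 3.21 and 2.49, and 2.26 and 2.88, a change of 6.36 (SE 1.23) in WT. Mrpl13, at background on all 4 primary arrays, was at least 32.9-fold higher in WT secondary recipients relative to the median gene, but its 2 KO secondary arrays read 0.47 and -5.61. It passed the filter on dim probes only on the secondary side, where it is high, so this bound is a description and supports nothing. In KO, Mrpl24 had 6.09 (SE 1.49), Mrpl45, which ties the ribosome to the inner membrane, 5.06 (SE 1.37), Mrpl41 4.41 (SE 1.22) and Mrps30 7.08 (SE 1.98), all with an adjusted p of 0.716 in limma's fit. The second probe of Mrps30 had -1.12 (SE 1.35) relative to the median probe, against 6.94 for the first. Mrps17 had the opposite sign in WT, -6.83 (SE 1.77), where a dim array read 9.04, and its second probe had 3.11 relative to the median probe.

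For KO against WT, no member passed the threshold either. limma called 0 of 22943 genes (0%) in primary recipients, in secondary recipients, over both and for the difference between them. Over both recipients, 1 member was higher at an unadjusted p under 0.05 (3.46% of all genes) and 4 were lower (1.16%). Relative to the median gene, the median change was -0.69 for the large subunit, with 28 of 46 genes below 0, and -0.54 for the small, with 20 of 29 below 0; before that step the medians were -0.36 and -0.22. Cytosolic ribosomal proteins had -0.38 and the genes of the respiratory chain and ATP synthase -0.82. In primary recipients the medians were 0.26 (large) and -0.26 (small, 0.01 before centring), and in secondary recipients -0.82 and -1.02. Among genes detected in a primary group, the large subunit's median in primary recipients had the opposite sign, -0.76. With 1 array left out at a time, the small subunit's median in secondary recipients ran from -1.80 to -0.37.

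Mrpl39, a protein known only from mitochondrial ribosomes, was the 1 member lower on all 4 KO than on all 4 WT arrays (0.506% of all genes). Its probe was well above background throughout and read 0.40 and -0.22 in WT primary, -3.37 and -0.87 in KO primary, 0.50 and 0.90 in WT secondary, and -1.53 and -2.89 in KO secondary arrays. The change was -2.89 (SE 0.79), with an unadjusted p of 0.0107 and an adjusted p of 0.856 in limma's fit, and it ran from -3.55 to -2.0 across 21 settings. Mrpl11, of the stalk, was the 1 member higher on all KO arrays (1.27%), at -0.86 and 0.01, 0.15 and 1.29, -0.22 and -2.16, and 1.46 and 0.64. Its change was 1.37 (SE 0.76). The other members of low p over both recipients were Mrpl41 at 1.80 (SE 0.86), Mrps18b at -4.39 (SE 1.38), Mrpl24 at -4.54 (SE 1.70) and Mrps25 at -3.86 (SE 1.495), all with an adjusted p of 0.856, and in these the genotypes overlapped. With normexp background correction, Mrps25 had 1.11, the opposite sign.

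In primary recipients 3 members were higher at an unadjusted p under 0.05 (1.95% of all genes) and 4 lower (2.01%), and 16 did not overlap upward (16.5%) and 8 downward (9.29%). The lowest p belonged to Mrpl24, a protein at the rim of the exit tunnel, which read 2.40 and 6.69 in WT, and -4.17 and -3.25 in KO. In secondary recipients it read 2.63 and 1.39 in WT and 1.62 and 2.07 in KO, so the KO primary arrays alone were low. The -3.25 came from the dim KO array, where a probe at background stood near -3.28, and the 6.69 from the dim WT array. The change in primary recipients was -8.52 (SE 1.49, adjusted p 0.997 in limma's fit). Mrps17, a core protein that binds ribosomal RNA, read 3.77 and 9.04 in WT primary and -0.11 and -2.13 in KO primary arrays, and -0.73 and -2.19, then 0.01 and 0.68, in secondary recipients. Here the WT primary arrays were high, most of all the dim one. Its change was -7.79 (SE 1.77). The other probe of Mrps17 read -1.99 and -3.63 in WT primary and -1.32 and -1.77 in KO primary arrays, a change of 0.96 (SE 1.1) relative to the median probe, against -7.84 for the first. Without the first WT primary array limma called both, Mrpl24 at -10.49 and Mrps17 at -10.26, each with an adjusted p of 0.0280, among 549 genes of which 547 were lower; that fit compares the dim WT array with the KO arrays. Without both dim arrays the changes were -6.71 and -4.03, with adjusted p-values of 0.429 and 0.586. Upward, Mrpl32 had 3.42 (SE 1.23), Mrpl12 3.37 (SE 1.26) and Mrpl49 2.27 (SE 1.02).

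In secondary recipients 1 member was higher at an unadjusted p under 0.05 (3.71%) and 2 were lower (1.66%), and 10 did not overlap upward (34.3%) and 15 downward (12.1%). Mrpl39 led downward, with -3.38 (SE 1.18), then Mrps31, a protein of mitochondria alone, with -3.32 (SE 1.2), and Mrps9, of the small subunit's head, with -2.56 (SE 1.01). Mrps31 read -0.39 and 0.93 in WT and -1.5 and -3.66 in KO. Mrps9 read 1.91 and 2.63 in WT and 0.70 and -0.35 in KO, and in primary recipients -0.59 and -1.76 in WT and 0.66 and 0.31 in KO, so its order turned. Upward, Mrpl41, a small protein of mitochondria alone, had 2.48 (SE 1.22). The difference between the recipients was itself tested: 2 members had it higher at an unadjusted p under 0.05 (2.06%), Mrpl24 with 7.79 (SE 2.10) and Mrps17 with 9.03 (SE 2.497), whose second probe had -2.17 (SE 1.56), and 2 lower (1.66%), Mrps9 with -4.06 (SE 1.42) and Mrps31 with -4.31 (SE 1.70). The adjusted p was 0.9999 for each in limma's fit.

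The members were then read by their place in the ribosome, over both genotypes and recipients. These classes do not follow the names, so they do not add up to the 46 large and 29 small subunit genes above. For secondary against primary recipients, the 29 large subunit genes with a bacterial homologue had a median change of 1.91 (1.15 before centring), with 24 above 0. At an unadjusted p under 0.05 (5.43% of all genes higher, 14.1% lower) there were 9, all higher. Members such as Mrpl19 and Mrpl3 passed the filter on dim probes through the secondary groups only, so such counts are a description. The 19 large subunit genes of mitochondria alone had 0.97 (0.21 before), with 14 above 0, 2 higher and 1 lower at that p. The 16 small subunit genes with a homologue had 0.38 (-0.38 before), and the 10 without had 0.17 (-0.59 before). For KO against WT, the 2 large subunit classes stood at -0.09 (0.24 before) and -1.5 (-1.17 before). The exit tunnel rim, 6 genes, had 1.34 for secondary against primary and -1.28 for KO against WT, and the central protuberance, 6 genes, had 0.51 (-0.24 before) and -0.83. The 6 genes of the decoding region and head had 1.54 and -0.67. The 3 stalk genes had 0.54 (-0.22 before) and 1.28, and for KO against WT all 3 lay above the median gene. Of 12 genes in which human deficiencies are known, such as Mrpl3, Mrpl44, Mrps16 and Mrps22, 8 lay above 0 for secondary against primary and 5 for KO against WT. These medians were not tested against one another.

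Other genes of mitochondrial translation did not pass the threshold either. For secondary against primary recipients the median change was 1.37 for 11 translation factors, 0.91 for 20 assembly factors, 0.27 (-0.49 before centring) for 16 aminoacyl-tRNA synthetases and -0.53 for 11 factors of transcription and RNA handling. At an unadjusted p under 0.05 (5.43% of all genes higher, 14.1% lower), 2, 1, 1 and 3 of them were higher and 0, 1, 1 and 1 lower. Slirp, which holds mitochondrial messenger RNA with Lrpprc, had the lowest p of these, with 5.68 (SE 0.93, adjusted p 0.0947 in limma's fit). Lrpprc itself had 3.49 (SE 0.93), Mtif2, the initiation factor, 3.61 (SE 0.86), and Mtfmt, which formylates the initiator transfer RNA, 3.28 (SE 0.85). Tfam, which packs mitochondrial DNA, had -1.51 (SE 0.77). For KO against WT, Mtfmt had the lowest p, with 2.89 (SE 0.85, adjusted p 0.856). The 6 ribosomal proteins outside the name rule had -0.74 for secondary against primary and -0.09 (0.24 before) for KO against WT.

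Several probes of 1 gene often gave different answers. Of 30 members with more than 1 tested probe, all probes had the same sign in 12 for secondary against primary recipients and in 16 for KO against WT. Mrpl3 had 4 probes, all above the median probe, and both probes of Mrps23 were high, but the second probe of Mrpl33 went the other way. Mrpl44, whose protein resembles an RNA-cutting enzyme, had the widest range, 8.94 on the log2 scale for secondary against primary recipients. The last 30 bases of its 3 probes, all on the plus strand, are shown because they stand for 3 places of 1 transcript.
Mrpl44, chr1:79656961-79657020 (mm8): tacatcaaaagcgaagaggcgaaacgtcag
Mrpl44, chr1:79658514-79658573 (mm8): gctctttgagatgtggaccgtcgtaaatcc
Mrpl44, chr1:79660341-79660400 (mm8): tacagctagatgtattttattccctccagc

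The first of these, which has the highest mean and stands for the gene, read -1.74 and 9.14 in WT primary, -4.11 and -2.59 in KO primary, -3.40 and 0.43 in WT secondary, and -0.93 and -5.32 in KO secondary arrays. The last, farthest downstream, read -7.45 and -4.32, -7.19 and -3.37, 1.67 and 1.93, and -1.52 and 1.45. It was well above background on all secondary and on no primary array, while the first was detected on 7 of 8 arrays. Relative to the median probe, the Mrpl44 change was -1.93 (SE 2.40) for the first, 1.66 (SE 1.97) for the middle and 7.02 (SE 1.24) for the last probe.

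**Figure D4:**
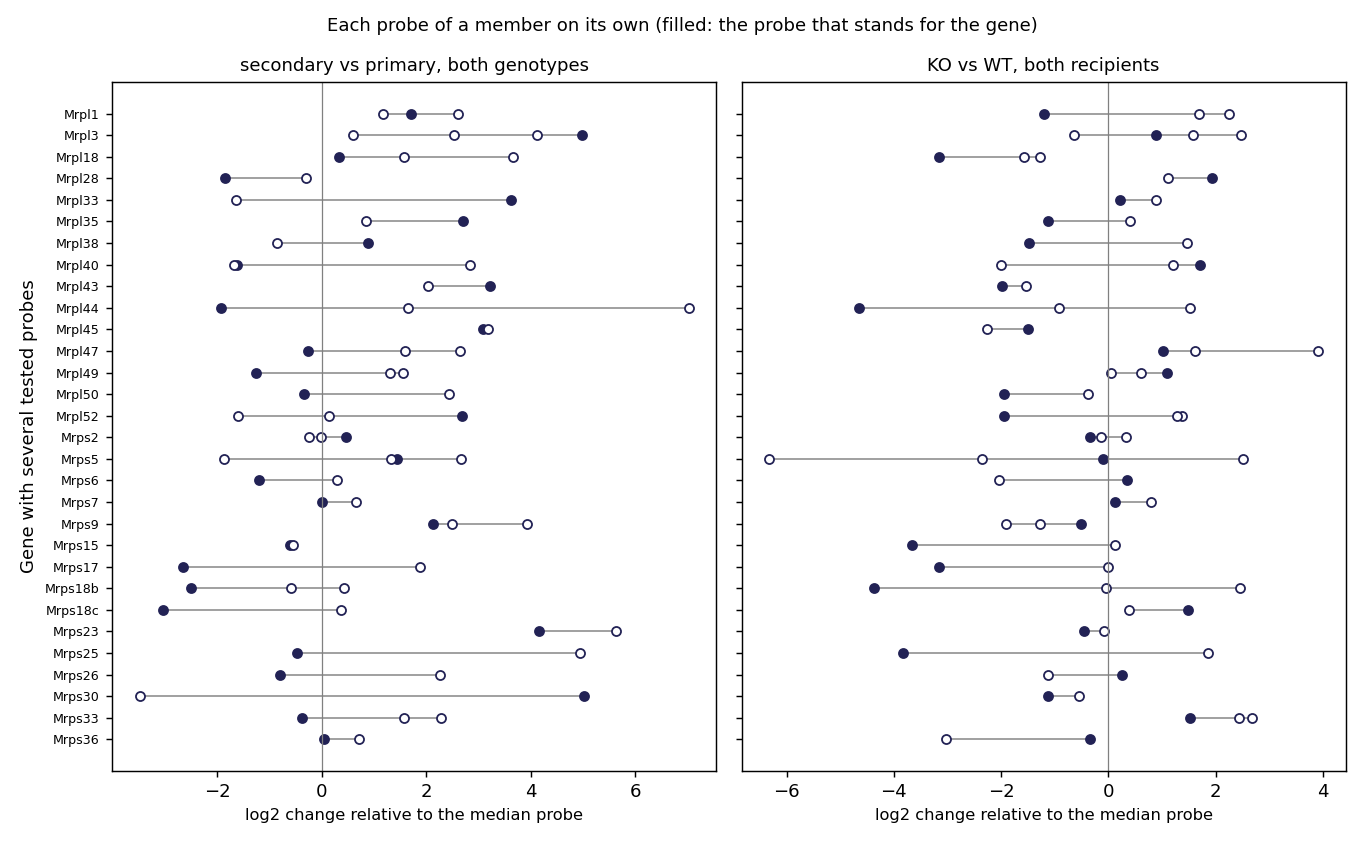
Log2 change relative to the median probe (horizontal axis) of each tested probe of the 30 members with several, for secondary against primary recipients (left) and KO against WT (right); filled points are the probes that stand for the gene and a line joins the probes of a gene. The line crosses 0 for 18 genes on the left and 14 on the right, and Mrpl44 on the left spans 8.94.

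The arrays of a group differed widely. The SD within groups had a median of 1.65 over the 75 members, from 0.29 for Mrpl10 to 6.44 for Mrpl36, and it was larger than the SD between group means in 47 of 75. A mean of 2 arrays varies less than a single array even where groups do not differ, so nothing is concluded from that count. Across the 75 genes, the correlation of 2 arrays of a group was 0.239 to 0.405, against 0.558 to 0.771 over all genes tested. That of arrays with the same recipient and different genotypes was 0.1745 to 0.5498 (0.5689 to 0.7801 over all genes). That of arrays from different recipients was -0.012 to 0.381 (0.4895 to 0.6497 over all genes). Genes are not independent points, and arrays share the amplification. On the dim WT primary array, 10 members stood more than 5 log2 units above their own median over the arrays: Mrpl18, Mrpl44, Mrpl51, Mrps11, Mrps12, Mrps15, Mrps17, Mrps18b, Mrps18c and Mrps35. That was 24.1% of the small subunit, 6.52% of the large and 6.07% of all genes tested. On the dim KO primary array there were 6, Mrpl28, Mrpl36, Mrpl40, Mrps16, Mrps18c and Mrps33, or 8% of members against 3.23% of all genes. The limit of 5 was chosen after the values were seen. The lists shared Mrps18c, 10% of the first and 16.7% of the second, where all genes tested shared 8.12% and 15.2%. Mrps12, a protein of the decoding centre, read 10.89 on the dim WT array and between -2.23 and 2.27 on the other 7, and Mrps16 read 10.31 on the dim KO array and between -1.07 and 2.60 on the other 7. Mrpl36 read 9.79 on that array and -8.18 on a WT secondary array.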

How the data were processed

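RNA of sorted HSC was measured on 8 one-colour arrays in 4 groups of 2, grouped by the titles. The deposited scanner files hold intensity; per the file headers the software was Feature Extraction 10.5.1.1 of Agilent, and values were already background-subtracted by the authors' scanner software. In the deposited series matrix, values are a ratio, the signal over each array's median (0.999946 to 1.00005 times the scanner value so divided) and served as an alternative. No spot was saturated. The number of arrays limits the precision.

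Outlier spots were left out and spots of a probe averaged. The value was log2 intensity minus the array's 75th percentile. Probes were named through RefSeq's gene table, and positions are those of the files (mm8). A gene was represented by its probe with the highest mean and tested if some probe of it passed the scanner's background test on both arrays of at least 1 group. limma 3.58.1 in R 4.3.3 (lmFit, eBayes) fitted the 4 groups (4 residual degrees of freedom), or genotype and recipient additively (5) for comparisons over all arrays, with Benjamini-Hochberg adjustment over 22943 genes and a threshold of 0.05. A gene undetected in a group gets a bound, set by the lowest signal well above background and given relative to the median change of all genes tested. In a test on simulated data for KO against WT over 22943 genes, 17 of 100 genes with a log2 change of 4 and 78 of 100 with 8 were recovered.

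Named members were those of lowest p, 8 per direction (4 for the difference between recipients), plus members whose groups do not overlap and genes that a count turns on, chosen after their values were seen; a planned ranking by level was dropped, since levels of different probes do not compare. The members and lists were chosen with earlier results of these data known. Replicate numbers did not pair the arrays. The difference between replicate 1 and replicate 2 of a group was correlated between groups over all genes tested. It gave 0.15 for the primary groups and between -0.026 and 0.014 for the other 5 pairs of groups. Alternatives were another percentile, quantile normalization, median centring, normexp background correction, the series matrix, 3 other filters, other uses of several probes, array weights, the replicate block, the 2 groups alone, and leaving arrays out.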

Additional observations from a re-analysis of the deposited data

How the results depend on the processing

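With the replicate block, or with only the 2 groups compared, limma called 0 genes in each comparison they could be fitted for. The medians could not move, since these fits return the same differences between group means. Of the 5 members named next, all but Mrpl33 passed the filter on dim probes through the secondary groups only, where they are high. Their calls are therefore a description and support nothing. The calls also lean 1 way among all 22943 genes. With the 75th percentile over detected probes, 365 of 368 were higher in secondary recipients, and with quantile normalization 213 of 222. For secondary against primary recipients over both genotypes, where 0 genes passed, the 75th percentile over detected probes called 368 genes and 5 members (Mrpl19, Mrpl3, Mrpl33, Mrpl4 and Mrpl41), quantile normalization 222 genes and 2 members, normexp 1 gene, each probe on its own 89, the mean over probes 17, and leaving out both dim arrays, an alternative chosen after seeing the data, 77 genes and 1 member.

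Leaving out 1 array moved the genes called for KO against WT in primary recipients between 0 and 549 and the members between 0 and 2. The large subunit's median moved between 1.74 and 2.07 (secondary against primary, WT), 0.071 and 1.46 (KO), 1.04 and 1.81 (both), -0.075 and 0.37 (KO against WT, primary), -1.04 and -0.36 (secondary), -0.88 and -0.13 (both) and -1.13 and -0.17 (the difference). The small subunit's moved between 0.49 and 1.58, -0.95 and 0.58, 0.15 and 0.68, -0.53 and 0.05, -1.80 and -0.37, -0.93 and -0.17, and -1.12 and 0.47 in that order.

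The large subunit's median for secondary against primary was 1.26 in WT with quantile normalization, 1.30 in WT and 0.98 over both among genes detected on all 8 arrays, 1.05 over both with normexp, and 1.04 in KO with each probe on its own. For KO against WT it was -0.29 among genes detected on all arrays, -0.11 with each probe on its own and -0.26 with the mean over probes. Normexp gave the small subunit -0.60 for KO against WT in secondary recipients. Among genes well above background in a primary group, another alternative chosen after seeing the data, the large subunit's median was 1.31 (WT) and 1.06 (both) for secondary against primary and -0.76 for KO against WT in primary recipients. Without both dim arrays the difference between recipients was -1.18 for the large and 0.10 for the small subunit.

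Of 1996 recomputed changes of named members, 1959 kept direction and side of the threshold, 10 passed it and 27 changed sign. For part of these the direction was fixed in advance. Leaving out an array that is not in a comparison, the replicate block and the fit of 2 groups all return the same change. The 1959 is therefore no rate of robustness. With normexp, Mrps25 had 2.36 and 1.11 for KO against WT (secondary recipients, both), Mrpl10 0.27 and 0.38 and Mrps26 0.22 and 0.35 for secondary against primary; Mrpl10 had 0.062 with the filter on all arrays. The mean over probes gave Mrpl1 0.88 (KO against WT, secondary), Mrpl49 0.27 and 0.69 and Mrps26 0.22 and 0.88 (secondary against primary, KO and both). Without both dim arrays, Mrps33 had -1.19, Mrpl21 -0.41, Mrpl51 0.65 and Mrps15 1.33 for KO against WT in primary recipients, Mrpl51 -1.01 for the difference, and Mrps11 0.46 and 0.030, Mrps16 1.16 and Mrps33 1.35 for secondary against primary. With 1 array left out, the secondary against primary change ran from -5.01 to 0.36 for Mrpl55 and -8.16 to 0.46 for Mrps11 in WT, and from -3.02 to 0.33 for Mrpl54, -9.78 to 1.16 for Mrps16 and -7.02 to 1.35 for Mrps33 in KO; that of KO against WT in secondary recipients ran from -0.079 to 2.19 for Mrps6. The cause was not tested.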
